A study of Homo sapiens with 8 samples.

Results

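Many small nucleolar RNAs (snoRNAs), the guides that direct chemical modification of ribosomal RNA, have no promoter of their own but are cut out of the introns of a host gene. The genes described here are 9 protein-coding snoRNA hosts that encode neither a ribosomal protein nor a translation factor: TAF1D, RABGGTB, IPO7, NCL, NOP56, NOP58, DKC1, WDR43 and CWF19L1. They were taken by symbol from a table of 4616 genes in which translational efficiency (TE, footprints over mRNA) was compared between hairpins, and all 9 had a row. A further 99 measured protein-coding genes outside the translation machinery are called other hosts here. Each spans a snoRNA gene in the RefSeq gene table, on either strand and not shown to be intronic. SCARNA genes were counted as snoRNA genes. The translation machinery was set apart by symbol, so a gene of translation with another kind of name stays among the 99. The 9 are therefore a selection. They were chosen by symbol after their log2 changes of TE and p-values in this comparison were known, so those values are given as a description.

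The cells were WM902B, a human primary melanoma line with an activating BRAF mutation, at passage 18. One condition expressed shTINCR, a hairpin against the long non-coding RNA TINCR, and the other shSCR, a scrambled hairpin. Each condition had 2 libraries of ribosome footprints and 2 of RNA, 8 libraries in all, from cells given cycloheximide (100 µg/ml for 5 min) to hold ribosomes in place. The titles call the RNA total, whereas the labels also name it poly(A) RNA. The only values analysed were those of the authors' comparison of the conditions, with 0 columns for a single library, so the spread between replicates and the depth of the libraries are unknown. TINCR had 0 rows in the table, and the effect of the hairpin on its target was not checked here. Of 8 markers of the melanocyte lineage 7 had rows (TYRP1 had none), against 0 of 4 keratinocyte, 0 of 4 fibroblast and 0 of 3 leukocyte markers, and a row shows only that a gene passed the authors' filter.

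A host gene makes several products from one transcript: the exons are spliced into an mRNA, and the excised intron is opened and trimmed to the snoRNA. Box C/D snoRNAs, most of them named SNORD, guide methylation of ribose and are bound by fibrillarin, NOP56, NOP58 and SNU13. H/ACA snoRNAs, named SNORA, guide the conversion of uridine to pseudouridine and are bound by dyskerin, NOP10, NHP2 and GAR1. Many host mRNAs, and nearly all mRNAs of ribosomal proteins, are known as TOP mRNAs: they begin with a C followed by an unbroken stretch of pyrimidines, and their translation is controlled as a group by mTORC1 through the cap-binding protein LARP1.

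The starts of the RNAs are shown because some of the 8 placed genes begin with a pyrimidine stretch and others do not. Each line gives 10 bases before and 20 bases from the start annotated by RefSeq (GRCh38.p14), 5′ to 3′ on the strand of the gene, for the 8 members with an entry, and capitals mark the unbroken run of C and T that begins at the start itself. All 8 had 1 listed start.
TAF1D (chr11:93741476-93741505, minus strand): aatagccaacCCTTTTCTTCCgcacggttg
RABGGTB (chr1:75786246-75786275, plus strand): cctgctctctCCTTTCCCTgttagacatgg
IPO7 (chr11:9384642-9384671, plus strand): gcttctctttCCTTTCgcgccggttgccgc
NCL (chr2:231464465-231464494, minus strand): ctttcgcctcagtctcgagctctcgctggc
NOP56 (chr20:2652622-2652651, plus strand): cgctagccgcattgcgagccgaacccggga
DKC1 (chrX:154762854-154762883, plus strand): gtgcgcgggtgggtgggtcctagcagcgcg
WDR43 (chr2:28894657-28894686, plus strand): gcgcacggacgaacacgtggctgcagcggg
CWF19L1 (chr10:100267619-100267648, minus strand): gcggattcgcattcccaattttaggtggca
TAF1D, RABGGTB and IPO7 began with C and had pyrimidine runs of 11, 9 and 6 bases. NCL, NOP56 and CWF19L1 began with A and DKC1 and WDR43 with G, so their runs were 0 bases long.

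In the authors' comparison all 9 log2 changes of TE were below 0, and 5 of the 9 genes fell at an adjusted p below 0.05, with 0 that rose. Of all genes in it, 47.0% had a change below 0, 16.4% passed the threshold, 8.17% fell and 8.23% rose. With the authors' first and second version of the estimate 5 members fell as well, beside 8.71% and 9.23% of all genes. The p-values of these versions were adjusted here, and each final value equals 1 of the versions, so this is no independent check. With the final values the same number fell at an adjusted p below 0.01, beside 4.2% of all genes. At an adjusted p below 0.05 and a log2 change of at least 0.5 in size 3 fell, beside 1.67%. The median log2 change of the 9 was -0.42 (0.749-fold), against 0.02 over all genes. Because the genes were selected with these changes in view, nothing is read from that difference. The error given below is the standard error that a log2 change and its p-value imply when the p-value is taken as that of a normal statistic.

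IPO7 is a nuclear import receptor that carries ribosomal proteins, histones and signalling proteins into the nucleus, and its span holds 1 snoRNA gene, SNORA23. Its log2 TE was -1.02 in shTINCR cells and 0.07 in shSCR cells in the authors' deposited table. The log2 change was -1.09 (0.471-fold, implied standard error 0.0899, adjusted p = 1.61e-30, from the authors' deposited table). It was the second most negative change of the table, and the gene moved to rank 4010 by TE among 4616 genes in shTINCR cells, against rank 2185 in shSCR cells.

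TAF1D is a subunit of SL1, the factor that brings RNA polymerase I to the promoter of the ribosomal RNA genes. It holds 8 snoRNA genes, the most of the 9, of which 6 are of the H/ACA class (SNORA1, SNORA8, SNORA18, SNORA25, SNORA32 and SNORA40) and 2 of box C/D (SNORD5 and SNORD6). Its log2 TE was -1.02 in shTINCR cells and -0.02 in shSCR cells in the authors' deposited table. The log2 change was -1.01 (0.498-fold, implied standard error 0.145, adjusted p = 6.96e-10, from the authors' deposited table) and ranked 4 from the most negative. IPO7 and TAF1D had nearly the same TE in both conditions, and by the distance between pairs of log2 TE each was the nearest of all genes to the other (0.0814 over the 2 conditions).

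RABGGTB encodes the catalytic subunit of the enzyme that attaches geranylgeranyl lipids to Rab proteins, the GTPases of vesicle traffic, and has no known part in making ribosomes. It holds SNORD45A, SNORD45B and SNORD45C. The gene had a log2 TE of -0.34 in shTINCR cells and 0.45 in shSCR cells in the authors' deposited table, which took it to the 34.7th percentile of TE in shTINCR cells, against the 71st in shSCR cells. The log2 change was -0.78 (0.581-fold, implied standard error 0.107, adjusted p = 6.88e-11, from the authors' deposited table). The gene nearest to it in both conditions was CIP2A, an inhibitor of the phosphatase PP2A, at a distance of 0.133 and with a log2 change of -0.62 (adjusted p = 0.00171, from the authors' deposited table).

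**Figure D1:**
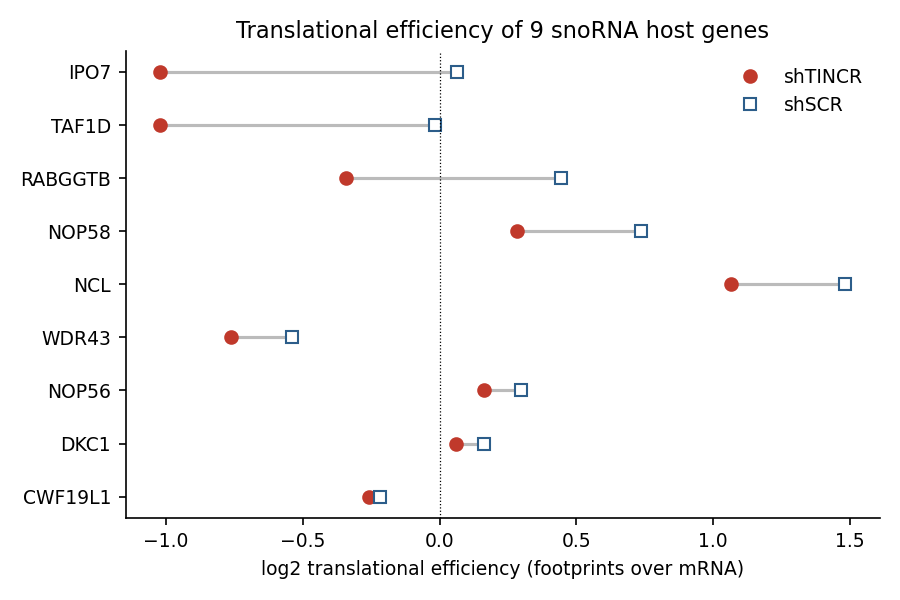
Log2 TE of the 9 host genes in shTINCR cells (filled circles) and shSCR cells (open squares), 1 value per condition from the authors' table, with genes ordered by change. IPO7 and TAF1D end at -1.02 in shTINCR cells, whereas NCL stays the highest in both conditions.

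The remaining members encode nucleolar and RNA processing proteins, and their changes were smaller. NOP58 and NOP56 are related proteins that sit side by side in every box C/D particle, and both genes host box C/D snoRNAs. NOP58 (SNORD11, SNORD11B, SNORD70 and SNORD70B) had a log2 TE of 0.28 in shTINCR cells and 0.74 in shSCR cells in the authors' deposited table. It had a log2 change of -0.45 and fell (0.731-fold, implied standard error 0.103, adjusted p = 0.00048, from the authors' deposited table). NOP56 (SNORD56, SNORD57, SNORD86, SNORD110 and SNORA51) had 0.16 in shTINCR cells and 0.30 in shSCR cells, and its log2 change of -0.13 did not pass (implied standard error 0.104, adjusted p = 0.404, from the authors' deposited table). The difference between the partners was not tested.

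Nucleolin (NCL), an abundant nucleolar RNA-binding protein that acts in the synthesis and processing of ribosomal RNA, holds SNORD20, SNORD82 and SNORA75. It had the highest TE of the 9 in both conditions, with a log2 TE of 1.07 in shTINCR cells and 1.48 in shSCR cells in the authors' deposited table. It had a log2 change of -0.42 and fell (0.749-fold, implied standard error 0.0906, adjusted p = 0.000198, from the authors' deposited table) and still lay at the 90.2th percentile of TE in shTINCR cells, against the 96.5th in shSCR cells.

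WDR43, a subunit of the UTP-A complex that binds the growing pre-ribosomal RNA, holds SNORD53, SNORD53B and SNORD92. Its log2 TE was -0.76 in shTINCR cells and -0.54 in shSCR cells, and the change of -0.22 did not pass after adjustment (implied standard error 0.101, p = 0.027, adjusted p = 0.114, from the authors' deposited table). Dyskerin (DKC1), the pseudouridine synthase of H/ACA particles and a component of telomerase, holds SNORA36A and SNORA56. Log2 TE of DKC1 was 0.06 in shTINCR cells and 0.16 in shSCR cells, with a change of -0.10 (implied standard error 0.0979, adjusted p = 0.517, from the authors' deposited table). CWF19L1, whose yeast relative assists the enzyme that opens intron lariats, holds SNORA12. For CWF19L1 it was -0.26 in shTINCR cells and -0.22 in shSCR cells, with a change of -0.04 (implied standard error 0.157, adjusted p = 0.90, from the authors' deposited table).

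With the members sorted by change, 3 gaps between neighbours were larger than 1 combined implied standard error of the pair. They were TAF1D to RABGGTB (0.222 against 0.18), RABGGTB to NOP58 (0.333 against 0.149) and NCL to WDR43 (0.193 against 0.136). The gaps between IPO7 and TAF1D, between NOP58 and NCL, and among WDR43, NOP56, DKC1 and CWF19L1 were smaller than that. A gap of this size is no test, and the changes were known when the members were chosen, so no order is claimed. IPO7 and CWF19L1, at opposite ends of the changes, each held 1 snoRNA gene, and TAF1D and NOP56 held 8 and 5. A relation between the number of snoRNA genes and the change was not tested. Among the levels, the lowest log2 TE in shTINCR cells belonged to TAF1D and IPO7, 0.00215 apart, whereas in shSCR cells it belonged to WDR43. In shTINCR cells 4 of the 9 genes were above the median TE of all genes, against 6 in shSCR cells. No error of a level is known, so the order of levels was not tested.

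**Figure D2:**
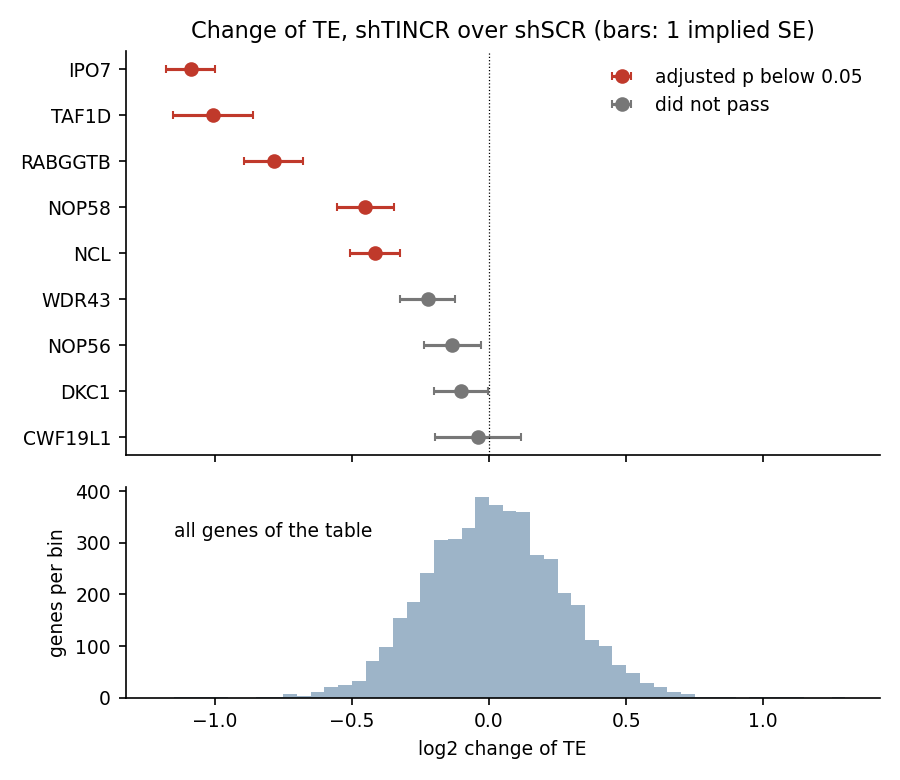
Upper panel, log2 change of TE (shTINCR over shSCR) of each gene with bars of 1 implied standard error, red where the authors' adjusted p was below 0.05; lower panel, the number of all 4616 genes per bin of 0.05 on the same axis. IPO7 (-1.09), TAF1D (-1.01) and RABGGTB (-0.78) lie beyond the bulk of the table, and CWF19L1 (-0.04) at its centre.

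The changes were then set against the starts printed above. The 3 genes with a pyrimidine start had log2 changes of -1.09 to -0.78, and the 5 genes whose start was A or G had -0.42 to -0.04, in members chosen with these changes in view; NOP58 was not placed. A start was counted as a pyrimidine start where the first base was C and at least 4 further pyrimidines followed, read on the strand of the gene only. Such starts made up 4.07% of the 35116 starts in the RefSeq table, 7.24% of the 2789 measured genes with 1 listed start and 3 of the 8 members. When the longest run touching the 5 bases on either side of the start was taken instead, 35.7% of all starts and 4 members qualified. The fourth was CWF19L1 (-0.04), so that by this rule the changes of both groups overlapped. The annotated start need not be the one used in these cells, which the table cannot show.

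The same start was followed through the whole table, members included. Of the 202 measured genes with 1 listed start and a pyrimidine start, 60 fell and 6 rose, with a median log2 change of -0.15. These are 29.7% and 2.97%, against 8.17% and 8.23% of all 4616 genes and 8.75% and 7.71% of those with 1 listed start. Of the 2587 with another start, 184 fell and 209 rose, with a median of 0.02. Counted by length alone, whether the first base was C or T, 27 of 71 genes with runs of 8 bases or more fell and 0 rose (median -0.23), and 33 of 132 with runs of 5 to 7 bases fell and 6 rose (median -0.11). Genes of the translation machinery carry many of these starts. By symbol, they are here ribosomal proteins (cytosolic and mitochondrial), initiation and elongation factors, RACK1, poly(A)-binding proteins and TPT1. Without them, 18.9% of 148 genes with a pyrimidine start fell and 4.05% rose. The counts by length include them and were not repeated without them. The levels behind these changes are no separate result. The median log2 TE of the 202 genes was -0.02 in shTINCR cells and 0.19 in shSCR cells. That of the 2587 was 0.05 in shTINCR cells and 0.03 in shSCR cells. The part of the start in any of these changes was not tested.

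**Figure D3:**
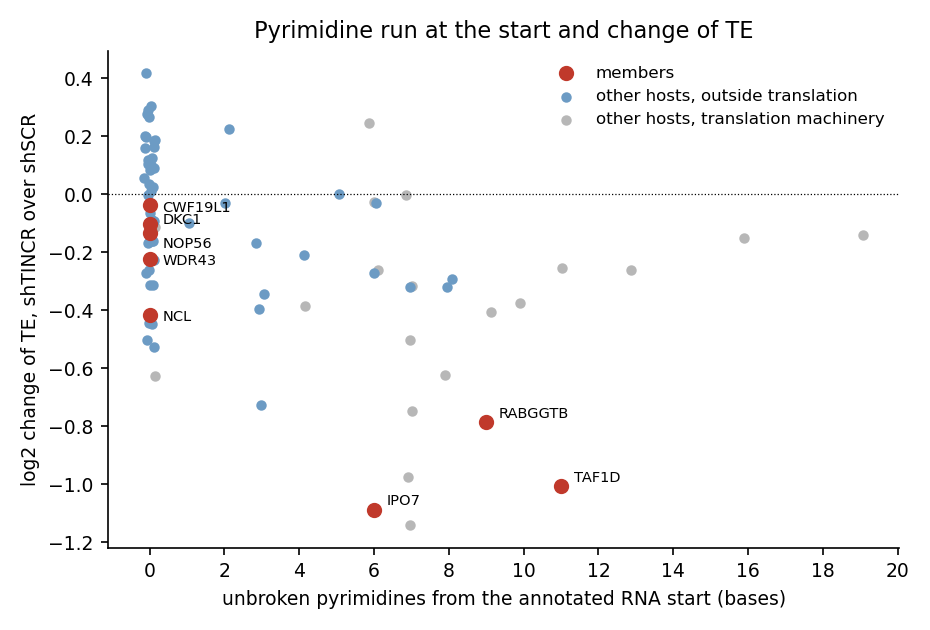
Length of the unbroken pyrimidine run at the annotated RNA start (bases) against the log2 change of TE (shTINCR over shSCR), 1 point per host gene with 1 listed start, with small sideways jitter for hosts that are not members. IPO7, RABGGTB and TAF1D have runs of 6, 9 and 11 bases and the most negative values among the labelled genes, and the other labelled genes stand at 0 bases.

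Host genes outside the selection were counted in the same way. Of the 99 other hosts outside the translation machinery, 15 fell and 6 rose (15.2% and 6.06%), beside 8.17% and 8.23% of all genes, and 78 did not pass. Their median log2 change was -0.04, against 0.02 for genes with no snoRNA gene inside. Of the 40 hosts in the translation machinery as listed above, TPT1 included, 21 fell and 1 rose, with a median of -0.26. The 99 changes ranged from -0.73 to 0.50, with 58 of them below 0.

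The heat shock protein HSPA8, host of SNORD14C, SNORD14D and SNORD14E, led the 15 that fell with a log2 change of -0.73 in the authors' deposited table. The chaperonin subunit TCP1 had -0.45 and its partner CCT6A -0.27, the mitochondrial chaperonin HSPD1 -0.57, the small GTPase RAP1B -0.45 and POLA1, a subunit of DNA polymerase α, -0.53 in the authors' deposited table. HSPA8 has 20 named pseudogenes and HSPD1 22, so their values are uncertain where reads are shared. METTL5, a methyltransferase of ribosomal RNA, had -0.50, the RNA-binding proteins RBMX and MATR3 had -0.39 and -0.36, and the hyaluronan receptor CD44 had -0.35 in the authors' deposited table. NOL11, a partner of WDR43, had -0.31 and the histone chaperone NAP1L4 -0.27 in the authors' deposited table. The 6 that rose were the transcriptional corepressor RERE (0.50), the sterol enzyme LSS (0.42), the elongation factor of transcription SUPT5H (0.35), the mitochondrial RNA-binding protein TBRG4 (0.30), the ubiquitin-conjugating enzyme UBE2S (0.29) and the focal adhesion protein TNS3 (0.28) in the authors' deposited table. The snoRNA gene inside UBE2S, SNORD157, also lies inside RPL28. Since strand and introns were not checked, any of the 99 may host none.

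Of the 6 other hosts outside translation with 1 listed start and a pyrimidine start, 3 fell and 0 rose, beside 8.17% and 8.23% of all genes. Such a start was also found in 139 genes outside translation without a snoRNA gene. Among those, 15.8% fell and 4.32% rose, with a median log2 change of -0.08. The median log2 change of the 6 was -0.28, and 5 had a change below 0, beside 47.0% of all genes. The 3 that did not pass were SNX5 (run of 8 bases, log2 change -0.29), COX7C (6 bases, -0.03) and EP400 (5 bases, 0.00) in the authors' deposited table. Only the 3 that fell are printed, picked by that result, in the same layout as the members.
NOP53 (chr19:47745536-47745565, plus strand): tggctgagttCTTCCTTTgacaagatggcg
NCAPD2 (chr12:6494092-6494121, plus strand): cgtgttttttCCTTTTCatttcagcctgac
TOMM20 (chr1:235128818-235128847, minus strand): tgtgctcggcCTTTCTgtgttcctggcccg
NOP53, a factor of large subunit assembly and host of SNORD23, had a run of 8 bases and a log2 change of -0.32 (adjusted p = 0.0433, from the authors' deposited table). NCAPD2, a subunit of condensin and host of SCARNA10, had a run of 7 bases and -0.32 (adjusted p = 0.0161, from the authors' deposited table). TOMM20, a receptor for proteins entering mitochondria and host of SNORA14B, had a run of 6 bases and -0.27 (adjusted p = 0.0474, from the authors' deposited table). All 3 changes were smaller than those of IPO7, TAF1D and RABGGTB. Of the 48 other hosts with a different start, 8 fell and 3 rose (16.7% and 6.25%, beside 8.17% and 8.23% of all genes), with a median of -0.02.

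Pseudogenes are copies of a gene whose sequence can take or give reads, and RefSeq names some for part of the genes. Of the 32 other hosts with a named pseudogene 11 fell and 2 rose, whereas of the 67 without one 4 fell and 4 rose. Of all genes with a named pseudogene 15.5% fell, and of those without one 5.72%. Among the members NOP56 has 3 named pseudogenes, IPO7 and NCL 2 each and RABGGTB 1, and 3 of these 4 fell. TAF1D, NOP58, WDR43, DKC1 and CWF19L1 have 0, and TAF1D and NOP58 fell among them. The part of shared reads in these values was not tested.

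**Figure D4:**
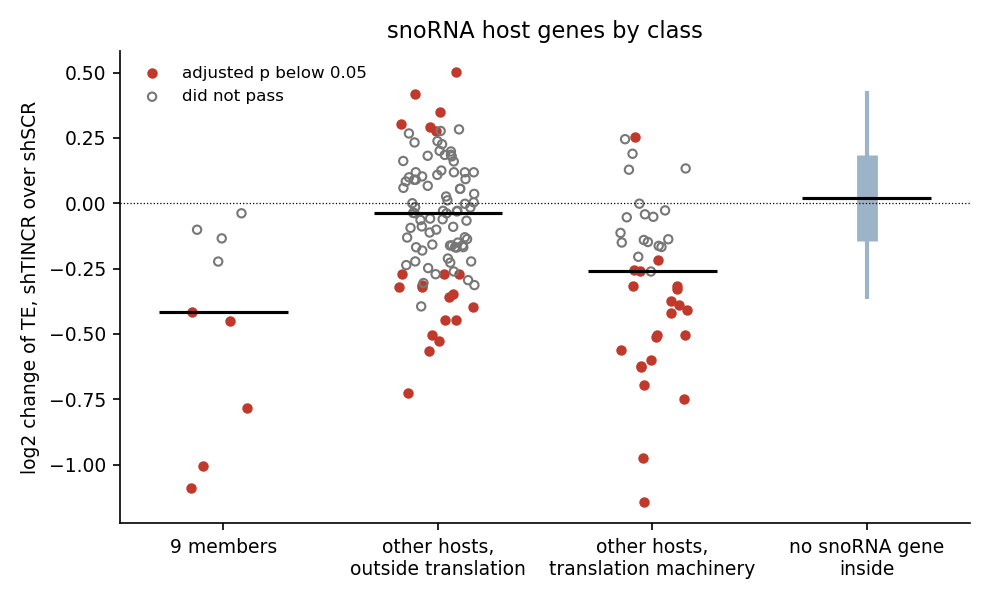
Log2 change of TE (shTINCR over shSCR) for the 9 members, 99 other hosts outside translation and 40 hosts in the translation machinery (points, red where the authors' adjusted p was below 0.05; lines, medians of -0.42, -0.04 and -0.26), and for genes with no snoRNA gene inside (thick bar, 25th to 75th percentile; thin bar, 5th to 95th). The members spread from -1.09 to -0.04, and the other hosts outside translation lie on both sides of 0.

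Proteins listed with each member were compared next. The lists are textbook groupings by complex, pathway, protein family or place in the cell, so a listed protein need not work with the member. Of the 17 measured members of the importin β family of transport receptors, 7 fell and 1 rose, with a median log2 change of -0.19. Without IPO7 the counts were 6 and 1 of 16 (median -0.17), beside 8.17% and 8.23% of all genes. IPO5, another import receptor for ribosomal proteins and histones, had a log2 change of -0.63 in the authors' deposited table. CSE1L, which returns importin α to the cytoplasm, had -0.45, and XPO1, the main protein exporter, had -0.42 in the authors' deposited table. IPO11 had -0.40, TNPO1 -0.26 and KPNB1, importin β itself, -0.24, whereas the exportin XPO6 rose by 0.44 in the authors' deposited table. IPO5 and CSE1L each had 1 listed start and a run of 0 bases there, and the other 4 that fell were not placed.

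RNA polymerase I and its factors had 8 measured genes besides TAF1D, of which 1 fell and 0 rose (12.5% fell, beside 8.17% of all genes). The one that fell was TAF1B, like TAF1D a subunit of SL1, with a log2 change of -0.60 (adjusted p = 0.00891, from the authors' deposited table). Its log2 TE was 0.18 in shTINCR cells and 0.77 in shSCR cells in that table. The polymerase subunit POLR1E had -0.34 (adjusted p = 0.0721) in the authors' deposited table, and the initiation factor RRN3 had -0.19 (adjusted p = 0.454) there. The median of the 8 genes was -0.15.

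Of 6 measured genes of lipid attachment to Rab and other GTPases besides RABGGTB, 1 fell and 0 rose (16.7%, beside 8.17% of all genes), with a median log2 change of 0.10. GDI2, which keeps lipid-bearing Rab proteins soluble, fell by 0.464 (adjusted p = 2.04e-05, from the authors' deposited table). RABGGTA, the other subunit of the same enzyme, had a log2 TE of 0.37 in shTINCR cells and -0.06 in shSCR cells, a change of 0.43 that did not pass (adjusted p = 0.0747, from the authors' deposited table). RABGGTA holds 0 snoRNA genes, and the difference between the subunits was not tested.

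In the proteins of snoRNA particles the changes lay on both sides of 0. Of the 4 box C/D core proteins, NOP58 fell and 0 rose, with -0.16 for fibrillarin (FBL, adjusted p = 0.367) and 0.17 for SNU13 (adjusted p = 0.257), both as the authors' deposited table gives them. Of the 3 measured H/ACA core proteins, NHP2 rose by 0.33 (adjusted p = 0.0148) and NOP10 had 0.24 (adjusted p = 0.176) in the authors' deposited table, beside the -0.10 of DKC1. Of the 5 measured assembly factors of box C/D particles and the 2 of H/ACA particles, 0 passed, with ZNHIT3 at -0.24, RPAP3 at -0.24, RUVBL1 at 0.03, RUVBL2 at 0.10, SHQ1 at -0.13 and NOLC1 at 0.04 in the authors' deposited table. Lariat debranching had 3 measured genes, of which 0 passed (CWF19L2 at -0.31, AQR at -0.05 in the authors' deposited table). Of 6 nucleases and helpers that trim snoRNA ends, 0 passed, with -0.17 for PARN, -0.16 for MTREX, -0.15 for EXOSC10 and 0.26 for EXOSC4 in the authors' deposited table.

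The UTP-A complex had all 6 of its genes measured. Of the 5 besides WDR43, all had a change below 0 (beside 47.0% of all genes), 2 fell (beside 8.17%) and the median was -0.30. WDR75 fell by 0.368 (adjusted p = 0.0475) and NOL11 by 0.312 (adjusted p = 0.0397), and UTP15 had -0.30 (adjusted p = 0.122), all from the authors' deposited table. Of 9 other nucleolar proteins listed with nucleolin, 2 fell and 0 rose (22.2% fell, beside 8.17% of all genes). Their median log2 change was -0.08, and 5 of the 9 had a change below 0. The ribosome assembly chaperone NPM1 fell by 0.537 and WDR12 had a change of -0.33, which also passed, whereas GNL3, which hosts 5 snoRNA genes, had -0.18 (adjusted p = 0.212), all from the authors' deposited table. NPM1 has 50 named pseudogenes, so its value is uncertain in the same way as those of HSPA8 and HSPD1.

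**Figure D5:**
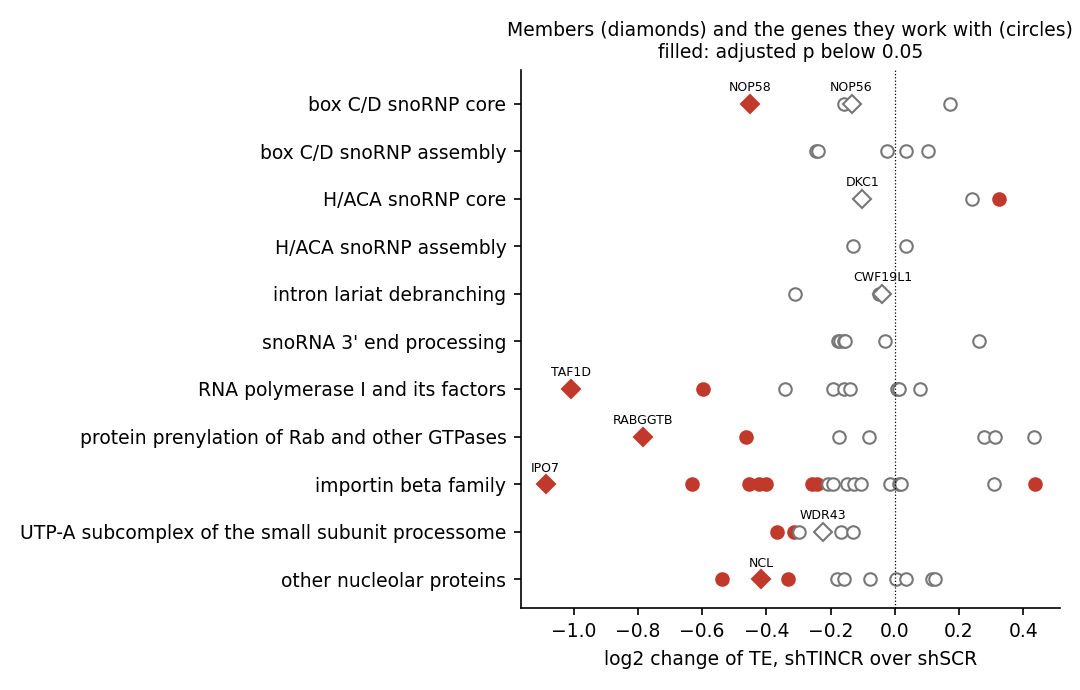
Log2 change of TE (shTINCR over shSCR) of the members (diamonds) and the measured genes of 11 lists by complex, pathway, family or place in the cell (circles), filled red where the authors' adjusted p was below 0.05. The importin β row holds 7 filled points left of 0 and 1 right of it, and the H/ACA core row has its filled point, NHP2 (0.33), on the right.

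The nearest genes to the mean pair of log2 TE of the 9 members over the 2 conditions were the mitotic cyclin CCNB2 (distance 0.0521), the kinase VRK1 (0.0542) and TOP2A (0.0556). Of these 3, 0 hold a snoRNA gene, beside 148 of all 4616 genes that do. The 3 were picked by that distance, so nothing is read from them. Since TE is a ratio, a fall can come from fewer footprints or from more mRNA, which these values do not separate.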

How the data were processed

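Per the labels' protocols, footprints and RNA of WM902B cells carrying shTINCR or shSCR were prepared in 2 biological replicates per condition. The submitters' processing notes list DESeq 1.10.1, HTSeq 0.5.3p9, SAMtools 0.1.18, Bowtie2 2.1.0, TopHat2 2.0.8, CASAVA 1.9 and build hg19 but not what each did. Which tool made the table, which part of a gene was counted and how low values were removed is, in the sources used here, not given. The deposited log2 columns hold, by the file headers, TE in either condition and its change in 2 versions and a final one. For each gene the final value equalled that of 1 of the versions, not the same one for every gene. The deposited p-values go with those versions, per the file headers, and a Benjamini-Hochberg adjustment of the final ones over every row gave the adjusted ones.

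Genes were called at the authors' adjusted p below 0.05. For the first and second version the authors' p-values were adjusted here over all rows by the Benjamini-Hochberg method. Everything else (folds, medians, implied standard errors, ranks, counts) was computed with Python 3.11.15, pandas 2.3.3, numpy 2.4.6 and scipy 1.17.1, with figures in matplotlib 3.10.9, and the functions were tested on simulated data. Symbols were matched to RefSeq genes of GRCh38.p14 (4465 current, 139 older, 12 unmatched). A host is a protein-coding gene whose span contains 1 or more of 568 SNORD, SNORA or SCARNA genes. Strand and exons were not used, so a snoRNA gene inside a host was not shown to be intronic. RNA starts are those of the RefSeq promoter table, and genes with several listed starts were left out of the counts of genes by start, except where any listed start counted.

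The members and lists were chosen with earlier results of these data known. Named were all members, and from each list and the other hosts outside translation those past the threshold, filled up to 4 by smallest p, except 1 gene that is not reported here. CIP2A, CCNB2, VRK1 and TOP2A were named for their distance in log2 TE. SNX5, COX7C and EP400 were named for their pyrimidine start.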

Additional observations from a re-analysis of the deposited data

How the results depend on the processing

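The count of members that fell was 5 with either version of the authors' estimate and at an adjusted p below 0.01. It was 3 (IPO7, TAF1D and RABGGTB) when a log2 change of at least 0.5 in size was also required. Each member kept its direction and its side of the threshold in both versions. Of the 99 other hosts outside translation, 8 fell and 1 rose at an adjusted p below 0.01, where 4.2% of all genes fell. At an adjusted p below 0.05 and a log2 change of at least 0.5 in size, 4 fell and 1 rose, where 1.67% of all genes fell. The shares of all genes that rose at these stricter settings are not given here. Without named pseudogenes 4 of 67 fell (5.97%), against 15.2% of the 99. Chosen after seeing the data, the restriction to hosts with 2 or more snoRNA genes left 19, of which 4 fell and 1 rose. Over all genes 8.17% fell and 8.23% rose. The share of all genes with a pyrimidine start that fell was 18.9% without genes of the translation machinery, against 29.7% with them. When any listed start counted, 22.8% of 334 genes fell and 4.79% rose. Both settings were also chosen after seeing the data. A stricter threshold can by construction only keep or lower a count. The cause of the other differences was not tested. Medians relative to that of all genes were -0.43 for the members and -0.0545 for the other hosts. Hosts defined on the same strand were not run, as the gene table used gives no strand, and no library could be left out. No paired analysis was possible because the table holds no value of a single library. Depth is unknown, so what it limits cannot be given.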
